A study of Mus musculus with 6 samples.

Results

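Glutathione synthesis and cystine uptake were followed through 9 genes, Slc7a11, Slc3a2, Cbs, Cth, Gclc, Gclm, Gss, Gsr and Glrx, in a mouse tumour cell culture. The cells carry rat her-2/neu, the oncogene of a receptor tyrosine kinase. Members were taken by gene symbol from the platform annotation of an Illumina mouse bead array, which gave 18 of 45281 probes for 8 of the genes. No probe was matched to Gsr, the reductase that regenerates glutathione, which is not analysed here. Of the 18 probes, 12 were above background (detection p under 0.05) on at least 3 of 6 arrays and were tested, among 19077 probes tested in all. These 12 probes stood for 7 genes, because neither probe of Cbs was above background on any array.

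The 6 arrays held RNA from 3 untreated cultures and 3 cultures exposed to withaferin A at 8 µM over 6 h. Both groups grew in serum-containing DMEM with gentamicin and glutamine, and the agent was diluted in culture medium. Withaferin A, from the plant Withania somnifera, is a steroidal lactone that reacts with thiols. The labels name no vehicle for the untreated cells and no line or clone, and place the replicates at passages 2, 3 and 4 without saying which array is which. The p-values therefore measure the spread between these arrays. Median raw intensity over tested probes was 218.5 to 235.9 on untreated and 191.8 to 202 on withaferin A arrays, and every change below is one that remains after quantile normalization.

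Of 5 epithelial markers, Krt8, Krt18 and Cdh1 were above background on all 6 arrays and Epcam on none. Leukocyte (3 matched) and endothelial (2) markers were above background on 0 arrays, as were Col1a1, Col3a1 and Pdgfrb among 5 fibroblast markers. Dcn, a proteoglycan gene on the fibroblast list, was detected on all arrays and fell 2.73-fold (limma adjusted p = 0.00778). The summed raw intensity of the fibroblast list thus ran from 863 to 1021 on untreated and from 500.5 to 584.8 on withaferin A arrays, and that of the epithelial list from 14585 to 18704 and from 11120 to 14172. These sums are raw, and the withaferin A arrays were dimmer as a whole. After normalization 4 epithelial markers were tested and 0 passed. Their log2 changes were -0.14 for Krt8, -0.70 for Krt18, -0.33 for Cdh1 and 0.35 for Krt19. The part of the marker differences in the results below was not tested. In bulk RNA, fewer cells of a type and less RNA per cell cannot be told apart.

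Glutathione is the main low-molecular-weight thiol of animal cells, a tripeptide of glutamate, cysteine and glycine. Cysteine is usually the limiting precursor. Cells take it up in oxidised form, as cystine, through the exchanger made of Slc7a11 and Slc3a2, or make it from homocysteine with Cbs and Cth. Glutamate-cysteine ligase, made of Gclc and Gclm, catalyses the committed step and Gss the last one. The transcription factors NRF2 and ATF4 are known to drive several of these genes in other settings, NRF2 through antioxidant response elements and ATF4 through C/EBP-ATF response elements.

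Of the 7 genes tested, 5 rose with withaferin A and 0 fell, against 2.81% of 9756 tested genes that rose and 4.02% that fell (6.83% in either direction). The 5 were both chains of the cystine exchanger (Slc7a11 and Slc3a2), both subunits of glutamate-cysteine ligase (Gclc and Gclm) and glutathione synthetase (Gss). Cth and Glrx did not pass. Of the 12 member probes tested, 9 rose and 0 fell at an adjusted p of 0.05 (limma, Benjamini-Hochberg over all tested probes). Among all tested probes 2.55% rose and 3.34% fell. The 9 were all the tested probes of the 5 rising genes, and each was above background on all 6 arrays. In 5 of the 7 members the 3 treated arrays lay above the 3 untreated ones in normalized values, as in 14.9% of tested genes. The reverse held for 15.8% of genes and 0 members. The 5 were the genes that passed, for which such separation largely follows from the call and adds no separate support. The median log2 change was 1.36 over the 7 members and 0.0054 over all tested genes. By size of rise, Gclm was at place 31 and Slc7a11 at place 32 of 9756 genes, followed by Slc3a2 at 77, Gclc at 90 and Gss at 125.

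RefSeq promoter windows, from 250 bases before to 50 bases after the annotated gene start in GRCm38.p6, were found for 6 of the 9 members. The windows of Gclm and Slc7a11 are shown because these genes had the largest rises among the members. They are written 5′ to 3′ on the strand of the gene, with matches to a searched motif in capitals. The motifs were the antioxidant response element core TGACNNNGC and the C/EBP-ATF response element TGATGNAA, searched on both strands.
Gclm promoter, chr3:122245307-122245606, plus strand: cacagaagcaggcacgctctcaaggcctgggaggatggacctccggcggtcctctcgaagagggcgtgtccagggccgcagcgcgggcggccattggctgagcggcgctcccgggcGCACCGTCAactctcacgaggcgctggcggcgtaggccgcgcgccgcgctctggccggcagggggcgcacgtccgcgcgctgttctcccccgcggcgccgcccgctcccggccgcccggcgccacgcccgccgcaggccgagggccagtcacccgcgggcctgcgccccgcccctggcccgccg
Slc7a11 promoter, chr3:50443564-50443863, minus strand: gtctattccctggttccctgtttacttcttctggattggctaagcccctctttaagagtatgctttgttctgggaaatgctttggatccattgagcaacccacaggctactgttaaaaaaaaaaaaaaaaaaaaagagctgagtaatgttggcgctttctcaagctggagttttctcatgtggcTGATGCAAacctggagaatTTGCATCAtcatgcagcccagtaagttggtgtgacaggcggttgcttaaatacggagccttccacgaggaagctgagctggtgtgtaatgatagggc

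In the Gclm window the capitals mark 1 match to the antioxidant response element core, GCACCGTCA on the opposite strand, which begins 134 bases before the gene start. A match to that core is present in 12.4% of 32851 mouse windows of this length, several of which can belong to 1 gene. In the Slc7a11 window the capitals mark 2 matches to the C/EBP-ATF response element that do not overlap. They are TGATGCAA on the strand of the gene at 66 bases and TTGCATCA on the opposite strand at 47 bases before the start. At least 1 such match is present in 3.97% of windows and 2 or more in 0.07%. The windows of Slc3a2, Gss, Cbs and Glrx hold neither set of letters, and Gclc and Cth were not among the windows. These matches describe sequence, and binding was not measured.

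**Figure D1:**
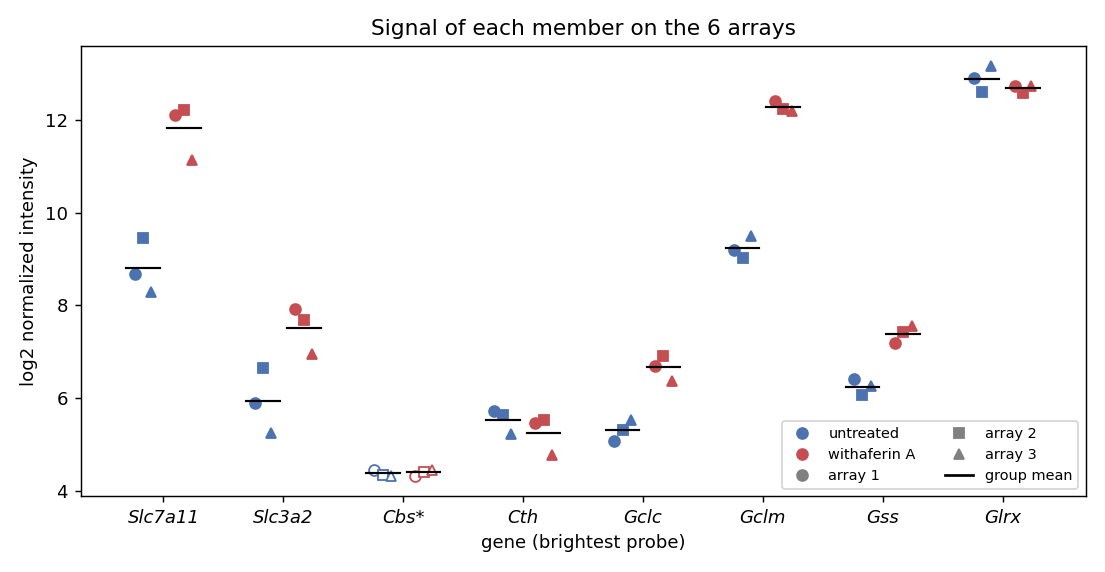
Log2 normalized intensity (vertical axis) of the brightest probe of each of 8 members (horizontal axis) on 3 untreated and 3 withaferin A arrays, with marker shapes for array numbers and black bars for group means. The treated arrays of Slc7a11, Slc3a2, Gclc, Gclm and Gss lie above all untreated ones, those of Cth and Glrx overlap them, and Cbs (open markers, asterisk) was above background on no array.

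Cystine uptake was represented first by Slc7a11, the xCT light chain that carries cystine in and glutamate out. Its brightest probe (ILMN_2948143) had raw intensities of 522.6, 846.5 and 376.9 on untreated arrays 1 to 3 and of 4184, 4994 and 2091 on withaferin A arrays 1 to 3. The lowest treated array was thus brighter than the highest untreated one. In normalized log2 intensity the level went from 8.80 ± 0.59 to 11.82 ± 0.60 (SD, n = 3 each), an 8.10-fold rise (log2 change 3.02, SE 0.35, limma adjusted p = 0.00154). The call held in all 15 alternative analyses, with rises between 6.49-fold and 10.2-fold.

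Slc7a11 has 4 further probes, of which 2 were tested. At ILMN_2740738 the raw intensities were 108.8, 114.5 and 88.3 untreated and 354.2, 407.4 and 279.3 treated, a 7.34-fold rise (limma adjusted p = 0.000105). The third tested probe, ILMN_2574165, read 116.8, 126.3 and 97.5 untreated and 325.4, 392.6 and 163.1 treated, a 4.59-fold rise (limma adjusted p = 0.00995). At every tested probe the groups did not overlap. Both of these probes start near background, and without background correction their rises were 3.76-fold and 2.76-fold. The call of ILMN_2574165 was lost with all probes tested (adjusted p = 0.0926) and without untreated array 3 (adjusted p = 0.0600), and without withaferin A array 3 its rise was 6.51-fold. The other 2 probes, ILMN_2568074 and ILMN_2463432, read between 58.6 and 81.3 on all arrays and were above background on none.

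Slc3a2 encodes CD98hc, the heavy chain that brings Slc7a11 and several other amino acid transporter light chains to the plasma membrane. Its 1 probe (ILMN_2595359) read 124, 171.6 and 93.9 untreated and 263.4, 248 and 167.8 treated. Raw groups overlapped, since untreated array 2 was just brighter than withaferin A array 3, but normalized values did not: 5.90, 6.65 and 5.24 against 7.92, 7.68 and 6.96. The rise was 3.00-fold (log2 change 1.59, SE 0.35, limma adjusted p = 0.0325).

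Slc3a2 was the member with the least stable call. It was lost without background correction (2.02-fold, adjusted p = 0.0541), with all probes tested (adjusted p = 0.162), and without untreated array 1 (adjusted p = 0.0751), untreated array 3 (0.106), withaferin A array 1 (0.121) or withaferin A array 2 (0.100). The direction was upward in all 15 alternatives.

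Of the genes that make cysteine from homocysteine, only Cth could be tested, and it did not pass. Cbs, which joins homocysteine to serine, read between 56.2 and 72 at its 2 probes over all 6 arrays, and its lowest detection p was 0.537. The signal of both Cbs probes was therefore at background with and without withaferin A, and Cbs has no fold change here. Whether the transcript was absent or the probes did not report it cannot be told apart. Cth, which splits cystathionine to release cysteine, read 115.5, 112.3 and 93.6 untreated and 94.2, 97.4 and 80.2 treated at ILMN_2733193, above background on 3 untreated and 2 treated arrays. Its normalized groups overlapped, and the log2 change of -0.28 (SE 0.23, 95% interval -0.80 to 0.24) did not pass (limma adjusted p = 0.489). A second Cth probe was above background on no array.

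**Figure D2:**
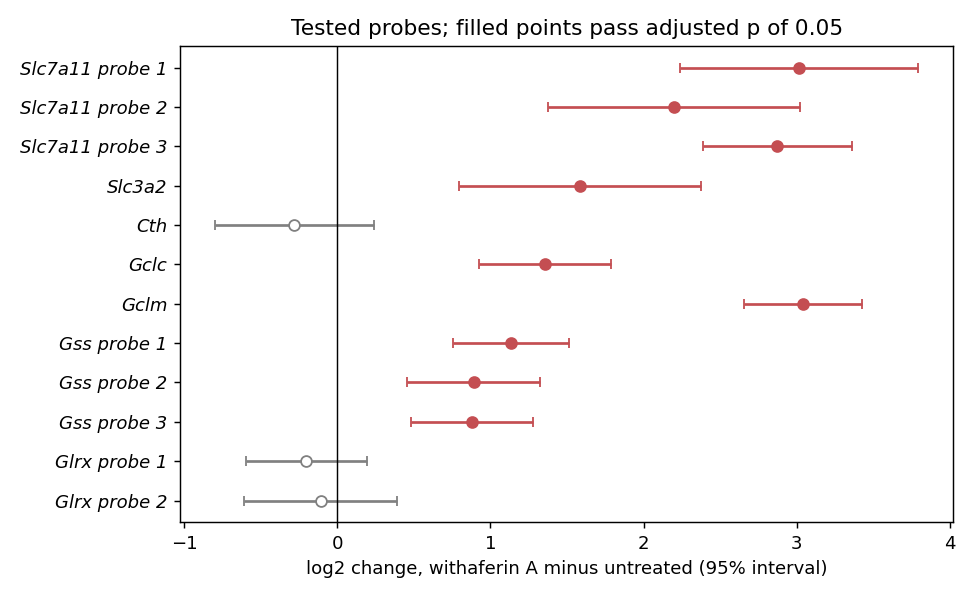
Log2 change, withaferin A minus untreated (horizontal axis), with its 95% interval, for the 12 tested probes of 7 members (vertical axis, probes of a gene ordered by untreated signal). The 9 probes of Slc7a11, Slc3a2, Gclc, Gclm and Gss pass an adjusted p of 0.05 (filled), from 0.88 for a Gss probe to 3.04 for Gclm, and those of Cth and Glrx do not (open).

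The committed step of glutathione synthesis rose at both subunits of glutamate-cysteine ligase. Gclm, the modifier subunit that raises the activity of the enzyme, read 728, 645.9 and 773 on untreated arrays and 5200, 5062 and 4402 on withaferin A arrays at ILMN_1256354. All 3 treated values were far above all untreated ones, and the spread within each group was small beside that distance. Its normalized log2 intensity rose from 9.24 ± 0.24 to 12.28 ± 0.12 (SD, n = 3 each), 8.23-fold (log2 change 3.04, SE 0.17, 95% interval 2.66 to 3.42, limma adjusted p = 1.95e-05). It had the smallest adjusted p of the members' brightest probes. Over 15 alternatives the rise stayed between 7.34-fold and 9.12-fold, and without background correction it was 7.62-fold.

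Gclc, the catalytic subunit, was measured near the detection limit. Its 1 probe (ILMN_2608016) read 93.2, 100.4 and 103.9 untreated and 144.8, 166.5 and 131 treated, where the dimmest probes called above background lay between 82.1 and 90.6 per array. All treated values exceeded all untreated ones. The rise was 2.56-fold (log2 change 1.36, SE 0.19, 95% interval 0.92 to 1.79, limma adjusted p = 0.00445), and 1.65-fold without background correction (adjusted p = 0.0184). The call held in all 15 alternatives. The 95% intervals of the Gclc and Gclm log2 changes do not overlap, but the signals differ in distance from background, and the difference between the subunits was not tested.

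Gss, which adds glycine to complete glutathione, rose at all 3 tested probes. At the brightest, ILMN_1227649, the raw intensities were 153.5, 132.6 and 136.6 untreated and 181, 213.8 and 225.1 treated, with no overlap. Normalized log2 intensity went from 6.25 ± 0.17 to 7.39 ± 0.19 (SD, n = 3 each), a 2.20-fold rise (log2 change 1.13, SE 0.17, limma adjusted p = 0.00543) whose call held in all 15 alternatives. That rise was 1.69-fold without background correction (limma adjusted p = 0.0129). The other tested probes rose 1.86-fold (ILMN_2667909, adjusted p = 0.0305) and 1.84-fold (ILMN_2818895, adjusted p = 0.0229).

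Those 2 smaller rises of Gss were less stable. Without background correction they were 1.42-fold (adjusted p = 0.0612) and 1.37-fold (adjusted p = 0.0526), and with all probes tested the adjusted p was 0.0954 and 0.0659. ILMN_2667909 lost its call without any 1 of the 3 untreated arrays or withaferin A array 2 (adjusted p up to 0.102), and ILMN_2818895 without untreated array 1, untreated array 3 or withaferin A array 1 (adjusted p up to 0.0960). A further Gss probe, ILMN_1253631, was above background on 1 of 6 arrays and was not tested.

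Glrx, the glutaredoxin that uses glutathione to free protein thiols from mixed disulfides, did not follow the synthesis genes. Its brightest probe, ILMN_2945348, read 8590, 6482 and 8719 on untreated and 6252, 6283 and 6411 on withaferin A arrays. Raw treated values were below all untreated ones, but after normalization, which takes out the lower brightness of the treated arrays, the groups overlapped (12.90, 12.60 and 13.16 against 12.73, 12.58 and 12.74). The log2 change was -0.20 (SE 0.18, 95% interval -0.60 to 0.19, limma adjusted p = 0.513), so a rise beyond 0.19 on the log2 scale lies outside the interval of this probe. The second probe, ILMN_2776922, had a log2 change of -0.11 (limma adjusted p = 0.809) with a wider 95% interval, -0.61 to 0.39. Its change was 0.079 without untreated array 3 and 0.0041 without withaferin A array 1.

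**Figure D3:**
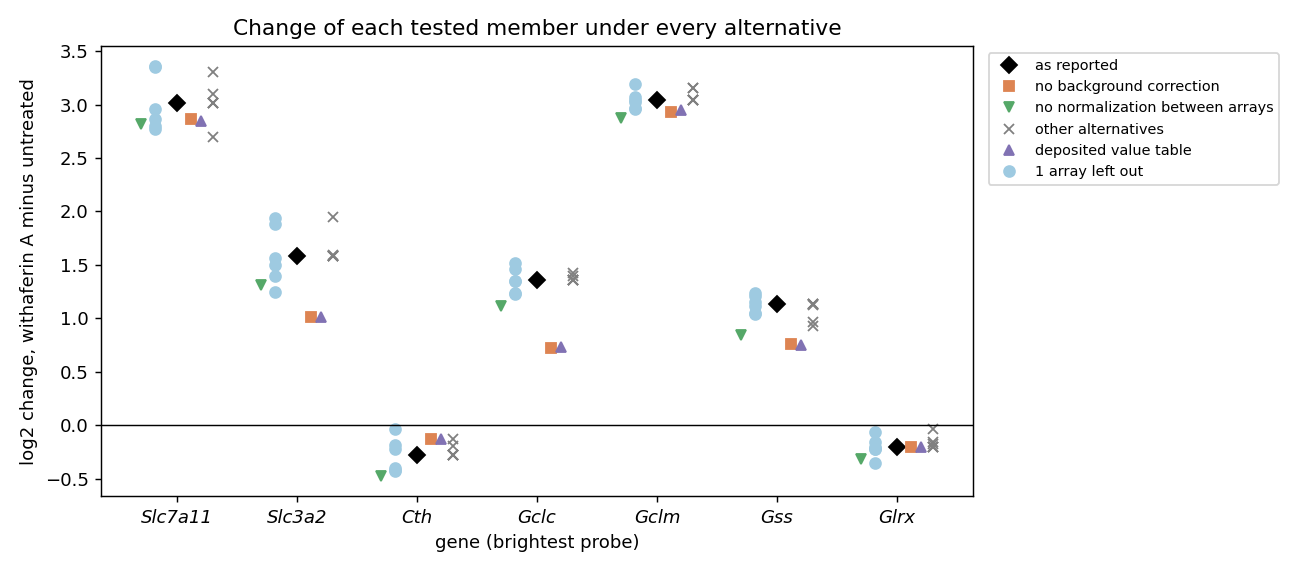
Log2 change, withaferin A minus untreated (vertical axis), of the brightest probe (of all tested probes for 1 of the alternatives) for 7 members (horizontal axis) as reported (black diamonds) and under 15 alternatives, 6 of which leave out 1 array. Without background correction and in the deposited value table the changes of Slc3a2, Gclc and Gss are closer to 0 than as reported, those of Gclm and Slc7a11 stay near 3, and no alternative changes the sign for any of the 7.

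The rising members differed in how much single arrays varied within a group. Among untreated arrays the normalized log2 values of Slc7a11 (brightest probe) and Slc3a2 spanned 1.16 and 1.41, against 0.48 for Gclm, 0.47 for Gclc, 0.34 for Gss and a median of 0.40 over tested genes. At all 3 tested Slc7a11 probes and at Slc3a2, untreated array 2 was highest and untreated array 3 lowest, an order found in 20.8% of tested genes. The same order held at the Gss probe ILMN_2818895 and, outside the members, in Atf4 (11.76, 12.20 and 10.28 on untreated arrays 1 to 3), in Chac1, a glutathione-degrading enzyme (10.17, 11.19 and 7.54), and in Nfe2l2 (9.45, 9.73 and 9.29). It did not hold in Ddit3, which was lowest on array 1, or in Slc1a4, which was highest on array 1 and spanned 0.20.

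On the treated side, withaferin A array 3 was lowest for Slc7a11, Slc3a2, Atf4 and Chac1, and also for Ddit3 and Slc1a4. The same array was lowest for Gclc, Gclm and Cth, and in 39.6% of tested genes. Gclm and Gclc had untreated array 3 as their highest untreated array, and Gss had array 1 at its brightest probe. This arrangement was noticed after the values had been seen, and its part in the changes was not tested. The other tested Slc7a11 probes spanned less over untreated arrays, 0.59 at ILMN_2574165 and 0.63 at ILMN_2740738, and the Glrx probe ILMN_2776922 spanned 0.82.

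**Figure D4:**
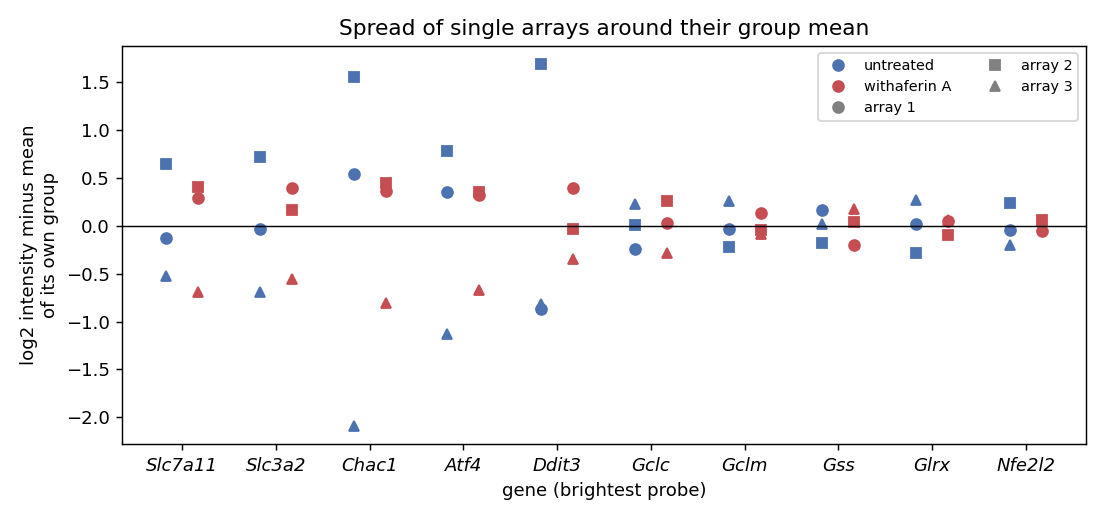
Log2 normalized intensity minus the mean of its own group (vertical axis) for single untreated and withaferin A arrays, for 5 genes on the left (Slc7a11, Slc3a2, Chac1, Atf4, Ddit3) and 5 on the right (Gclc, Gclm, Gss, Glrx, Nfe2l2). Arrays deviate more on the left, where untreated array 2 (blue squares) is highest for each of the 5, than on the right. On the right, untreated array 2 is highest for Nfe2l2. The sides were arranged after the values had been seen, and Slc1a4 is not shown.

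Around the members, 52 other genes of glutathione and cysteine metabolism in 5 lists were examined, of which 46 had a probe and 26 were tested. Of these 26, 2 rose, 0 fell and 24 did not pass, and their median log2 change was 0.18. A share of 2 in 26 compares with the 2.81% of all tested genes that rose. The 2 were Slc1a4 and Esd.

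Among 5 tested transporters Slc1a4, a neutral amino acid exchanger for alanine, serine and cysteine, rose and 4 did not pass. Its raw intensities were 661.9, 650 and 527 untreated and 2264, 2367 and 1807 treated. The groups were well apart, and the rise was 4.38-fold (log2 change 2.13, SE 0.16, limma adjusted p = 0.000101). It passed in each fit without 1 array. Of the light chains that pair with Slc3a2 beside Slc7a11, Slc7a6 and Slc7a7 were tested and had log2 changes of 0.48 (adjusted p = 0.232) and -0.65 (adjusted p = 0.0649).

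Of 7 tested glutathione-dependent enzymes, Esd, the S-formylglutathione hydrolase, rose and 6 did not pass. Its brightest probe read 1394, 1476 and 1912 untreated and 3768, 4936 and 3989 treated, a 3.03-fold rise (limma adjusted p = 0.00305), and its other 3 tested probes rose 5.80-fold, 6.61-fold and 7.13-fold. The 4 probes agree in direction and differ in size. The glutaredoxins Glrx2, Glrx3 and Glrx5 had log2 changes of 0.18, 0.19 and 0.44 and, like Glrx, did not pass.

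Glutathione breakdown was represented by 3 tested genes of 14, none of which passed. Chac1 had the smallest p among them, with raw intensities of 1376, 2623 and 248.3 untreated and 4181, 4906 and 1830 treated. Untreated array 2 was brighter than withaferin A array 3, and the log2 change of 2.11 (SE 0.77) did not pass (limma adjusted p = 0.133). In the methionine cycle 4 genes were tested and none passed. Mtrr, which reactivates methionine synthase, had the smallest p (log2 change 0.74, adjusted p = 0.111). Cysteine breakdown was represented by 7 tested genes, and none passed. Tst, a sulfurtransferase, had the smallest p (log2 change -0.43, adjusted p = 0.219).

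Among 5 regulators, Nfe2l2, which encodes NRF2, had a log2 change of -0.16 (SE 0.16, limma adjusted p = 0.583). Keap1, whose protein holds NRF2 down, rose 1.71-fold (log2 change 0.77, SE 0.17, adjusted p = 0.0300) at its brightest probe, and its 3 other tested probes had changes of 0.53 to 0.56 that did not pass (adjusted p from 0.112 to 0.132). That call was lost with all probes tested (adjusted p = 0.0642) and without untreated array 2 or 3 or withaferin A array 1 or 2 (adjusted p up to 0.132). Atf4 had a log2 change of 0.69 (SE 0.46, adjusted p = 0.391) and Ddit3, which encodes CHOP, 0.57 (SE 0.58, adjusted p = 0.588). Ddit3 read 916.9 on untreated array 2, above all 3 treated arrays (300.8 to 459), and 203 and 195.5 on the other two untreated arrays.

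**Figure D5:**
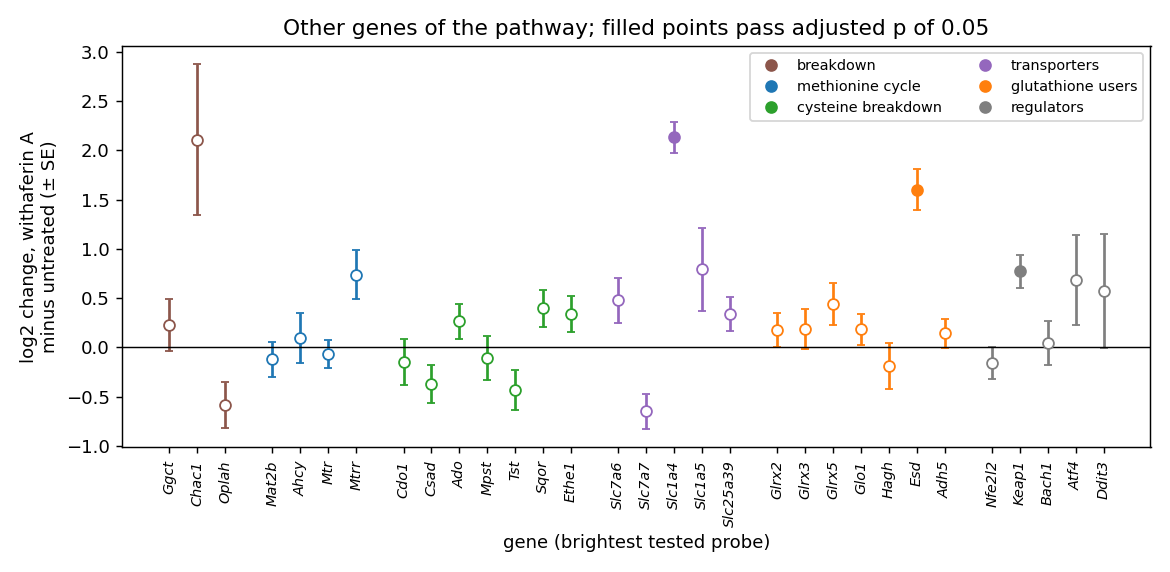
Log2 change, withaferin A minus untreated (vertical axis, bars are limma standard errors), of 26 tested genes from 5 lists around glutathione and cysteine and of 5 regulators (horizontal axis, colours for lists). Slc1a4, Esd and Keap1 pass an adjusted p of 0.05 (filled), and Chac1 has a change of 2.11 with a wide error.

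The genes with the profile most like Gclm over the 6 arrays, by the root mean square difference of log2 values centred on each gene's mean, were Mest (0.24), Pgbd5 (0.26) and Abcc4 (0.28), out of 9749 other genes. Their log2 changes were 2.65, 2.66 and 2.80, against 3.04 for Gclm. For Slc7a11 they were Hspb1 (0.37), a small heat shock protein gene, Slc48a1 (0.42), a haem transporter gene, and Cbr3 (0.50), a carbonyl reductase gene. Their log2 changes were 3.37, 2.47 and 2.75, against 3.02 for Slc7a11. The differences from the nearest genes are larger for Slc7a11 than for Gclm.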

How the data were processed

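Biotin-labelled total RNA was hybridised to an Illumina mouse bead array, per the labels. The authors deposited probe intensity values without normalization or background subtraction, as far as the values show, with a detection score per array. That deposited score is a fraction which rises with intensity, and it was read as 1 minus the detection p. The authors also deposited a table of log2 values centred on the mean of the 2 same-numbered arrays. Its column medians on arrays 1 to 3 were -0.000566, -0.00265 and -0.00108 in the untreated group and 0.000566, 0.00265 and 0.00108 in the treated group. Pair differences in it correlated across tested probes with raw log2 ratios at 0.972, 0.987 and 0.983, which sets scale and direction, and its normalization between arrays stays unknown.

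Intensities were background-corrected by normexp with negative controls inferred from the detection p (offset 16), quantile-normalized and taken to log2 with limma 3.58.1 in R 4.3.3. Probes with detection p under 0.05 on at least 3 arrays were tested with lmFit and eBayes, two-sided, and Benjamini-Hochberg adjustment over all tested probes at a threshold of 0.05. The fit was tested on simulated data with the spread of each probe on these arrays, drawn independently for each probe and array. It recovered 50 of 100 2-fold changes and 91 of 100 4-fold changes, with 1 false call. A gene that did not pass may therefore still have changed. Deviations shared by many probes of an array were not simulated, so the false calls in the real data were not measured. Each gene is represented by the brightest tested probe, by mean log2 over arrays. Of 45281 probes, 34885 had 1 symbol, 18 several and 10378 were not listed; 34807 were found by gene ID in RefSeq tables of GRCm38.p6. No build is named for the array. Members and lists were chosen with earlier results of these data known. Named list genes are those called (up to 4), or the one with the smallest p, and the light chains, glutaredoxins and regulators beside them were named after their values were seen. The nearest profiles were taken for the 2 members with the smallest adjusted p, 3 genes each. The number of arrays limits the precision.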

Additional observations from a re-analysis of the deposited data

How the results depend on the processing

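Across 15 alternatives (background correction, normalization, the deposited value table fitted with a replicate block, filters, the replicate number as a block, probes per gene, array weights and leaving out each array), the calls of Slc7a11, Gclc, Gclm and Gss at the brightest probe were kept and no member changed sign. Slc3a2 lost its call in 6, so 4 rather than 5 members were then called. The count over all genes, 666, was 1691 without normalization between arrays (160 higher, 1531 lower), 2687 in the deposited value table together with the replicate block (1023 with the block alone), 337 with all probes tested and 2150 with array weights, and it ran from 241 to 890 with 1 array left out. Leaving out untreated array 3 gave 310, leaving out withaferin A array 1 gave 241 and array 2 of that group 322, and the cause was not tested. Without normalization between arrays Gclm still rose 7.34-fold, and 298 genes were higher and 345 lower with median scaling, against 274 and 392.

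No label says what a shared array number stands for, and the check of pairing was mixed. Deviations of same-numbered arrays from their group means correlated at 0.27, -0.039 and 0.32, and not every array correlated best with its own number. With the replicate number as a block 1023 genes and the same count of 5 members were called, with adjusted p = 0.00302 for Slc3a2. No slide is named for the arrays, so a slide block was not run. Dim signals limit Gclc, Gss, Slc3a2, Cth and the smaller probes of Slc7a11, whose folds depend on the background correction.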

Other observations

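Krt19, a keratin gene of the epithelial marker list, differed more between array numbers than between groups. Its raw intensities were 137, 79.6 and 303 for arrays 1 to 3 in the untreated group and 120.5, 81.1 and 420.1 in the treated group, and the log2 change was 0.35 (SE 0.96, limma adjusted p = 0.863). Array 3 was highest and array 2 at background in both groups.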
